A study of Homo sapiens with 12 samples.

Results

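Fibrillar collagens are the collagens whose long triple helices line up side by side into banded fibrils. The genes described here are the 10 fibrillar collagen genes COL1A1, COL1A2, COL2A1, COL3A1, COL5A1, COL5A2, COL5A3, COL11A1, COL11A2 and COL27A1, of 58288 gene IDs in the deposited count table, 26652 of which had at least 1 count. They were chosen by measured values of these same libraries, because COL5A1 and COL11A1 were among the genes with the largest rises after knockdown. The rest of the family, apart from COL24A1, was taken with them. All contrasts of COL5A1 and COL11A1 are therefore given as a description with no test.

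The study sequenced polyA RNA from HK-2, an immortalised cell line from human kidney proximal tubule, and asked what loss of the tumour suppressor folliculin (FLCN) does to gene expression after shorter or longer growth in culture. All cells carried a stable shRNA, so the controls were not untouched cells. The nontarget groups carried a control shRNA and are labelled WT, and the knockdown groups carried an shRNA against FLCN. Short-term cells had grown for <30 passages and long-term cells for >120 passages, which with the 2 kinds of shRNA gave 4 groups, each of 3 libraries. These limits are those of the labels, while the methods of the published study put the long-term limit at >105. The study worked with selected clones, and the sources used here do not name the clone behind a library, so the shRNA, the clone and its history in culture cannot be told apart. Total counts per library ran from 6284233 to 7279890 for nontarget and 5825779 to 8151168 for knockdown cells in short-term culture, and from 6262665 to 7592062 and 6031734 to 8991051 in long-term culture. Levels are given as CPM, the counts of a library scaled by its size and composition, or as CPM per kb of exon where genes are compared with each other.

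Fibrillar collagens are made as procollagen chains that are hydroxylated and glycosylated, folded into trimers in the endoplasmic reticulum, exported, trimmed by propeptidases and cross-linked outside the cell. Types I, II and III form the bulk of fibrils in connective tissue and cartilage, while types V and XI are minor collagens that start fibrils and limit their width. In the kidney, fibrillar collagen is mostly a product of interstitial fibroblasts, and it builds up in fibrosis.

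Libraries numbered 3 stood apart from the other libraries of their groups. A chi-square per degree of freedom over genes with at least 20 counts, which is near 1 for counting noise alone, was 3.53, 5.28 and 3.93 between replicates 1 and 2 of short-term knockdown, long-term nontarget and long-term knockdown, and 6.83 to 13.0 between replicate 3 and either of the others. In short-term nontarget it was 2.15 between replicates 1 and 2 and 4.35 to 4.44 against replicate 3. Every pair of replicates thus differed by more than counting noise, and no library was a copy of another.

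FLCN itself checked the labels. Its counts were 93, 110 and 105 in nontarget and 47, 45 and 32 in knockdown libraries of short-term culture, and 74, 77 and 94 in nontarget and 58, 43 and 47 in knockdown libraries of long-term culture. Each knockdown library was below each nontarget library of its own culture time. The log2 fold change was -1.29 ± 0.17 (SE, n = 3 per group; adjusted p = 1.12e-04, edgeR quasi-likelihood test with Benjamini-Hochberg adjustment, in which p measures the spread between these libraries) in short-term culture and -0.68 ± 0.17 (adjusted p = 0.00611) in long-term culture, and the interaction, which tests whether knockdown acted differently at the 2 culture times, gave adjusted p = 0.118. FLCN shares its locus with MPRIP on the opposite strand, and the library kit does not mark strand, so reads from their overlap cannot be told apart.

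The family separated by level, as shown in the plot of levels by library. COL5A1 and COL11A1 reached 41.7 to 251 CPM in knockdown libraries, COL1A1 and COL27A1 were at moderate levels in all 12 libraries, and COL5A2 and COL11A2 were at low levels in all 12. The other 4, COL1A2, COL2A1, COL3A1 and COL5A3, were at or near 0. The filter on low counts kept 6 of the 10 genes, and COL11A1 passed it only through its knockdown libraries.

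**Figure D1:**
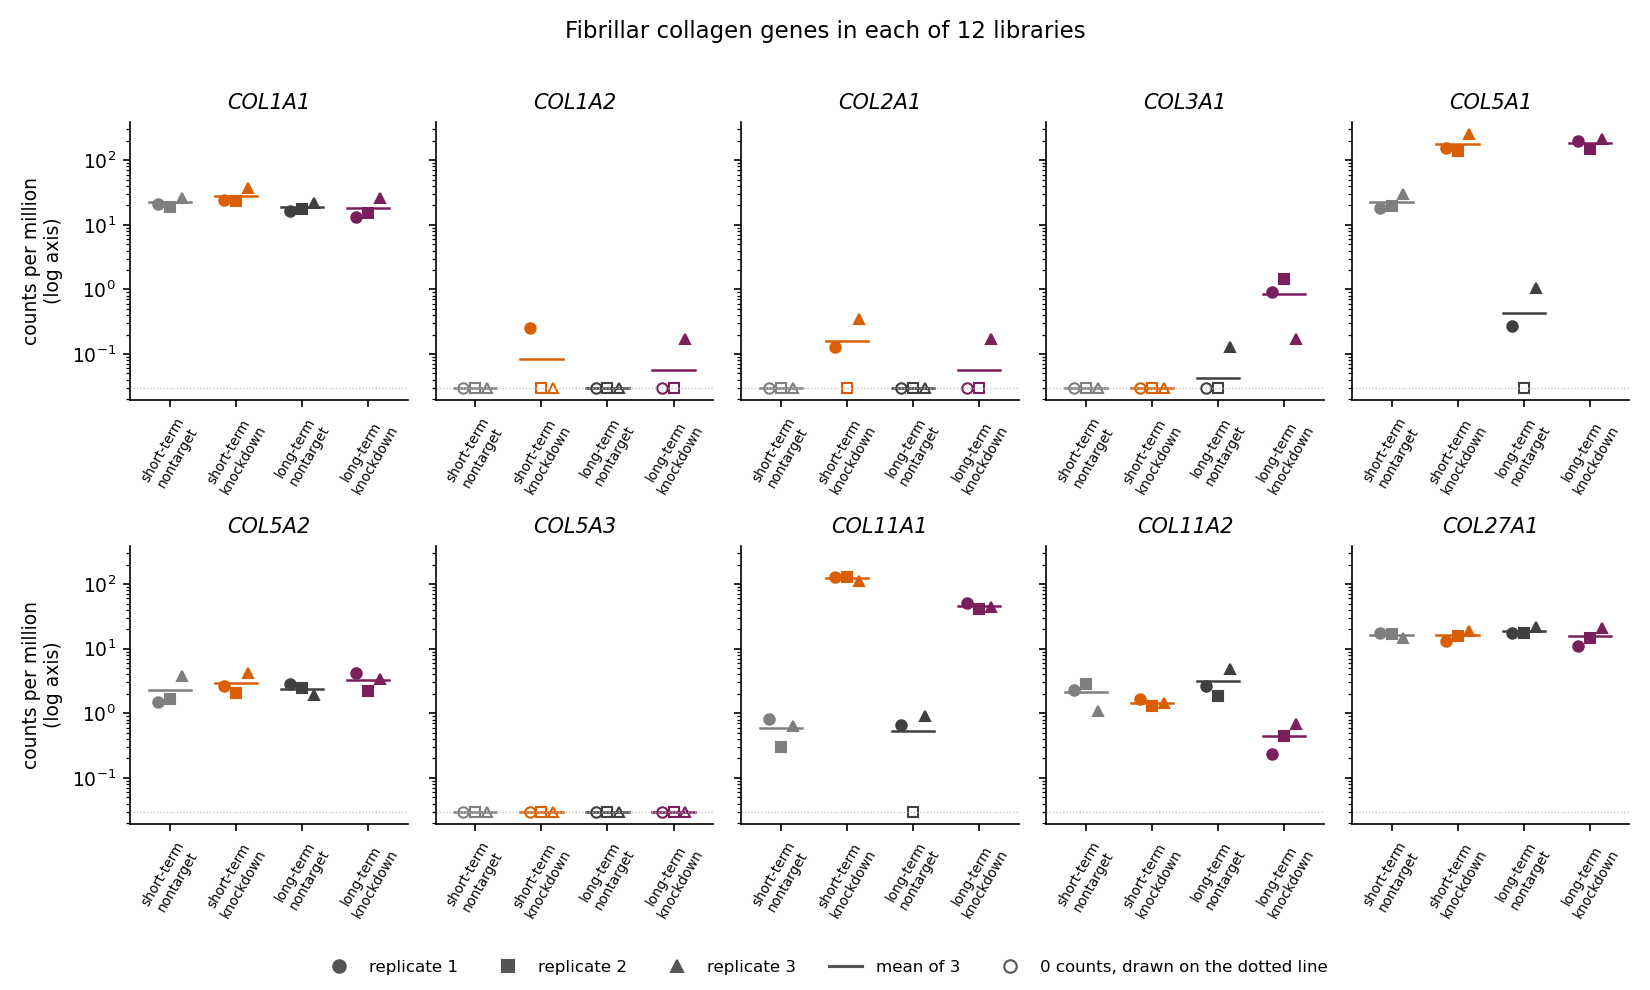
CPM (log axis) of the 10 fibrillar collagen genes in each of 12 libraries; points are libraries, short lines are means of 3, and open symbols on the dotted line are libraries with 0 counts. COL5A1 and COL11A1 are high in both knockdown groups, COL5A1 is lowest in long-term nontarget, and COL11A2 is lowest in long-term knockdown.

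RefSeq promoter windows (GRCh38.p14, 250 bases before to 50 after the start) were found for 5 of the 10 members, COL5A1, COL5A3, COL11A1, COL11A2 and COL27A1, in 9 entries, and none was found for COL1A1, COL1A2, COL2A1, COL3A1 and COL5A2. They are shown for the 2 genes that led to the choice of the family, COL5A1 at chr9:134641553-134641852 (plus strand; a second entry starts 2 bases later) and COL11A1 at chr1:103108473-103108772 (minus strand), and for COL27A1, a member at a steady level, at chr9:114155287-114155586 (plus strand). Capitals mark GGGCGG or CCAAT on either strand.
COL5A1: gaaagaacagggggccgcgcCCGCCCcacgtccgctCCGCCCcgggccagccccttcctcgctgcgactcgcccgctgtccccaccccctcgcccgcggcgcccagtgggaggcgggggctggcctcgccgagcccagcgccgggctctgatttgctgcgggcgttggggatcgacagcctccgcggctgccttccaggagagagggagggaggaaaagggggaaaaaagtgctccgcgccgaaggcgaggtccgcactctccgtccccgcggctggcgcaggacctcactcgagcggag
COL11A1: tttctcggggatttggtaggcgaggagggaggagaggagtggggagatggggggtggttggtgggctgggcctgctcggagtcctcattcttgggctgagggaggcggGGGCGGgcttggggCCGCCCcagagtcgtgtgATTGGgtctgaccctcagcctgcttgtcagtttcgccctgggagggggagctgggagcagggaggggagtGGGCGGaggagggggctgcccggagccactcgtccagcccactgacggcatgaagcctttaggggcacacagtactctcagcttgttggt
COL27A1: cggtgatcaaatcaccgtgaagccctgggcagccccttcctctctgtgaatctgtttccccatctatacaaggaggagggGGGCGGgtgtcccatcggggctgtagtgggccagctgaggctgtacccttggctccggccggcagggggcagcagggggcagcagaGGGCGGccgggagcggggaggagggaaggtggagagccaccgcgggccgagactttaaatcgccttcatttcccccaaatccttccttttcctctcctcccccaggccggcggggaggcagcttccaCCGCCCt

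GC boxes (GGGCGG) occurred 2 times in the COL5A1 window, 3 times in the COL11A1 window and 3 times in the COL27A1 window, and 45% of all 35116 promoter windows held at least 1. CCAAT occurred 1 time in the COL11A1 window and 0 times in the others, against 34.6% of all windows. TATAAA (11.5% of all windows), CACGTG (7.26%), GTCACGTG (2.4%) and TCACGTGA (0.98%), the last 2 of which contain CACGTG, were found in none of the 9 member windows. GC content was 74% for COL5A1, 66% for COL11A1 and 65.7% for COL27A1, against a median of 58.7% over all windows. All 3 windows held GC boxes, so these motifs did not separate the steady gene from the other 2.

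COL5A1, which encodes the chain present in the common forms of type V collagen, lies on chromosome 9 (chr9:134641774-134844843, plus strand, GRCh38; ENSG00000130635.15). Its counts were 131, 128 and 189 in short-term nontarget and 1205, 942 and 1419 in short-term knockdown. In long-term culture they were 2, 0 and 8 in nontarget libraries and 1729, 1004 and 1268 in knockdown libraries. The long-term nontarget libraries were lowest, the short-term nontarget libraries lay above them, and both knockdown groups lay above both nontarget groups without overlap.

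In CPM, the mean ± SD (n = 3) of COL5A1 was 22.3 ± 6.41 in nontarget and 180 ± 61.6 in knockdown libraries of short-term culture, and 0.434 ± 0.537 in nontarget and 187 ± 35.5 in knockdown libraries of long-term culture. The 2 knockdown groups did not differ beyond their spread. Knockdown libraries held 8.07 times the nontarget level in short-term culture, with a fitted log2 fold change of 3.00. In long-term culture they held 431 times the nontarget level, a ratio that rests on 10 counts in the nontarget group and that became 1398 without long-term nontarget replicate 3. The fitted log2 fold change there was 7.97, pulled toward 0 by a prior count of 2, and the interaction was 4.97. These are the values that chose the gene, and they carry no test.

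The culture-time contrasts use the same libraries that chose COL5A1, so they too are a description. The mean CPM of COL5A1 in nontarget cells was 51.4 times lower in long-term than in short-term culture, or 167 times lower without long-term nontarget replicate 3, and each long-term library was below each short-term library. The fitted log2 fold change was -4.92. Between short-term and long-term knockdown cells it was 0.06, and the groups overlapped.

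COL11A1, which encodes a chain of type XI collagen, the minor fibrillar collagen of cartilage, lies on chromosome 1 (chr1:102876467-103108872, minus strand, GRCh38; ENSG00000060718.20). Its counts were 6, 2 and 4 in short-term nontarget and 1033, 885 and 639 in short-term knockdown. In long-term culture they were 5, 0 and 7 in nontarget libraries and 438, 284 and 263 in knockdown libraries. Both nontarget groups were near 0 and overlapped, long-term knockdown lay far above them, and short-term knockdown was highest, with no overlap between the knockdown groups in CPM.

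The mean ± SD of COL11A1 was 0.584 ± 0.261 CPM in nontarget and 124 ± 9.82 CPM in knockdown libraries of short-term culture, and 0.525 ± 0.47 CPM in nontarget and 45.6 ± 4.56 CPM in knockdown libraries of long-term culture (n = 3 each). Knockdown libraries held 213 times the nontarget level in short-term culture (172 to 267 with 1 library left out at a time) and 86.9 times in long-term culture (57.9 to 136, the highest without long-term nontarget replicate 3). Fitted log2 fold changes were 7.15 and 5.78 and the interaction was -1.37, all given with no test. Within knockdown cells the mean CPM in long-term culture was 0.367 of that in short-term culture (fitted log2 fold change -1.44). Within nontarget cells the log2 fold change over culture time was -0.07, at 12 counts in each group. These contrasts use the libraries that chose the gene and were not tested.

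Both genes were high in both knockdown groups, but COL11A1 was lower in long-term than in short-term knockdown cells while the 2 groups overlapped for COL5A1. Per kb of exon, COL5A1 stood at 0.948, 0.865 and 1.8 times COL11A1 in the short-term knockdown libraries and at 3.21, 2.87 and 3.92 times in the long-term ones, with no overlap.

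The other chains of types V and XI did not follow. COL5A2, whose chain joins that of COL5A1 in the most common type V trimer, had counts of 11, 11 and 24 in nontarget and 21, 14 and 24 in knockdown libraries of short-term culture, and 21, 16 and 15 in nontarget and 37, 15 and 20 in knockdown libraries of long-term culture. All 4 groups overlapped. Its log2 fold change was 0.32 ± 0.35 (edgeR adjusted p = 0.655) for knockdown in short-term culture and 0.43 ± 0.34 (adjusted p = 0.381) in long-term culture. COL5A3, which encodes a less common type V chain, had 0 counts in all 12 libraries.

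The ratio of COL5A1 to COL5A2 per kb of exon therefore moved with COL5A1. In short-term culture it was 7.93, 7.75 and 5.25 in nontarget libraries and 38.2, 44.8 and 39.4 in knockdown libraries. In long-term culture it was 0.0634, 0 and 0.355 against 31.1, 44.6 and 42.2. COL5A2 was the more abundant of the pair in long-term nontarget and the less abundant in the other 3 groups.

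COL11A2, the partner chain of COL11A1 in type XI collagen, moved the other way in long-term knockdown. Its counts were 17, 19 and 7 in nontarget and 13, 9 and 8 in knockdown libraries of short-term culture, and 20, 12 and 38 in nontarget and 2, 3 and 4 in knockdown libraries of long-term culture. In CPM, long-term knockdown was below every other group without overlap, and short-term nontarget overlapped both short-term knockdown and long-term nontarget. Against long-term nontarget COL11A2 fell by 2.29 on the log2 scale (SE 0.42, n = 3 per group, edgeR adjusted p = 4.13e-04), and it kept this call in every alternative fit that tested it and with any library left out. In short-term culture the knockdown difference was -0.45 ± 0.39 (edgeR adjusted p = 0.54). Over time in knockdown cells the log2 fold change was -1.30 ± 0.44 (edgeR adjusted p = 0.0381), and the interaction was -1.84 ± 0.56 (adjusted p = 0.0368).

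The last 2 calls of COL11A2 were not stable. DESeq2 did not make either, the fit to the libraries numbered 1 and 2 did not make the interaction call, and COL11A2 was not tested when the fit held only the groups compared or only genes of at least 10 CPM. Over the alternatives, fitted with edgeR or DESeq2, adjusted p ran from 0.014 to 0.053 for time in knockdown cells and from 0.0109 to 0.0903 for the interaction. The first was lost without short-term knockdown replicate 1 (0.107), 2 (0.0587) or 3 (0.0594) and without long-term knockdown replicate 1 (0.161) or 2 (0.0854). The interaction was lost in 8 of 12 such fits: without short-term nontarget replicate 1 (0.0582) or 3 (0.0698), short-term knockdown replicate 1 (0.087), 2 (0.0528) or 3 (0.0503), long-term nontarget replicate 3 (0.0971) and long-term knockdown replicate 1 (0.123) or 2 (0.0755). The log2 values with 1 library left out ran from -1.53 to -1.06 for time in knockdown cells and from -2.08 to -1.40 for the interaction.

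COL11A1 was below COL11A2 in nontarget cells and far above it in knockdown cells. Per kb of exon, the ratio of COL11A1 to COL11A2 was 0.262, 0.078 and 0.424 in nontarget libraries and 58.9, 72.9 and 59.2 in knockdown libraries of short-term culture. In long-term culture it was 0.185, 0 and 0.137 against 162, 70.2 and 48.7. The highest of the last 3 rests on 2 counts of COL11A2.

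COL1A1, a chain of type I collagen, the main collagen of connective tissue, had counts of 155, 125 and 168 in nontarget and 193, 158 and 210 in knockdown libraries of short-term culture, and 121, 115 and 171 in nontarget and 116, 105 and 152 in knockdown libraries of long-term culture. The groups overlapped in each comparison. Its log2 fold change was 0.34 ± 0.23 (edgeR adjusted p = 0.423) for knockdown in short-term culture, -0.06 ± 0.23 (adjusted p = 0.879) for knockdown in long-term culture and -0.24 ± 0.23 (adjusted p = 0.661) for time in nontarget cells. For time in knockdown cells it was -0.64 ± 0.23 (edgeR adjusted p = 0.0523), just short of the threshold. That value depended on the fit: it was 6.94e-04 with the replicate number as a block, 0.0351 without short-term knockdown replicate 2 and 0.00231 without long-term knockdown replicate 3. Leaving out long-term nontarget replicate 3 also brought it below the threshold, and 5 of 8 alternatives made the call, with adjusted p over the edgeR and DESeq2 fits from 6.69e-04 to 0.0966.

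COL1A2, which encodes the partner that normally joins COL1A1 in type I collagen, was almost undetected. It had 3 counts in all 12 libraries, 2 in short-term knockdown replicate 1 and 1 in long-term knockdown replicate 3. COL2A1, the main cartilage collagen, had 4 counts, 1 and 2 of them in short-term knockdown replicates 1 and 3 and 1 in long-term knockdown replicate 3. COL3A1, the main collagen of soft connective tissue, had 0 counts in 8 libraries. It reached 8, 10 and 1 counts in long-term knockdown against 0, 0 and 1 in long-term nontarget, a ratio per total count of 18.5 with a 95% exact counting interval of 2.94 to 769. None of the 3 passed the filter on low counts, and the interval covers counting error only.

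COL27A1, which encodes a collagen of cartilage and growing bone, was at a steady level. Its counts were 130, 112 and 95 in nontarget and 105, 109 and 107 in knockdown libraries of short-term culture, and 129, 113 and 167 in nontarget and 97, 99 and 124 in knockdown libraries of long-term culture. The groups overlapped in every comparison. In long-term culture each knockdown library was below the nontarget library of its number. The levels were 11.2, 14.5 and 21 CPM against 17.3, 17.5 and 21.6 CPM, and the replicate block made no call there. Log2 fold changes were -0.06 ± 0.20 and -0.29 ± 0.20 for knockdown in short-term and long-term culture (edgeR adjusted p = 0.911 and 0.302), the second reaching adjusted p = 0.031 without long-term knockdown replicate 3, and 0.18 ± 0.20 and -0.05 ± 0.20 for time in nontarget and knockdown cells (adjusted p = 0.699 and 0.884). COL24A1, the family's remaining gene, which was not among the members, had 0 to 3 counts per library.

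**Figure D2:**
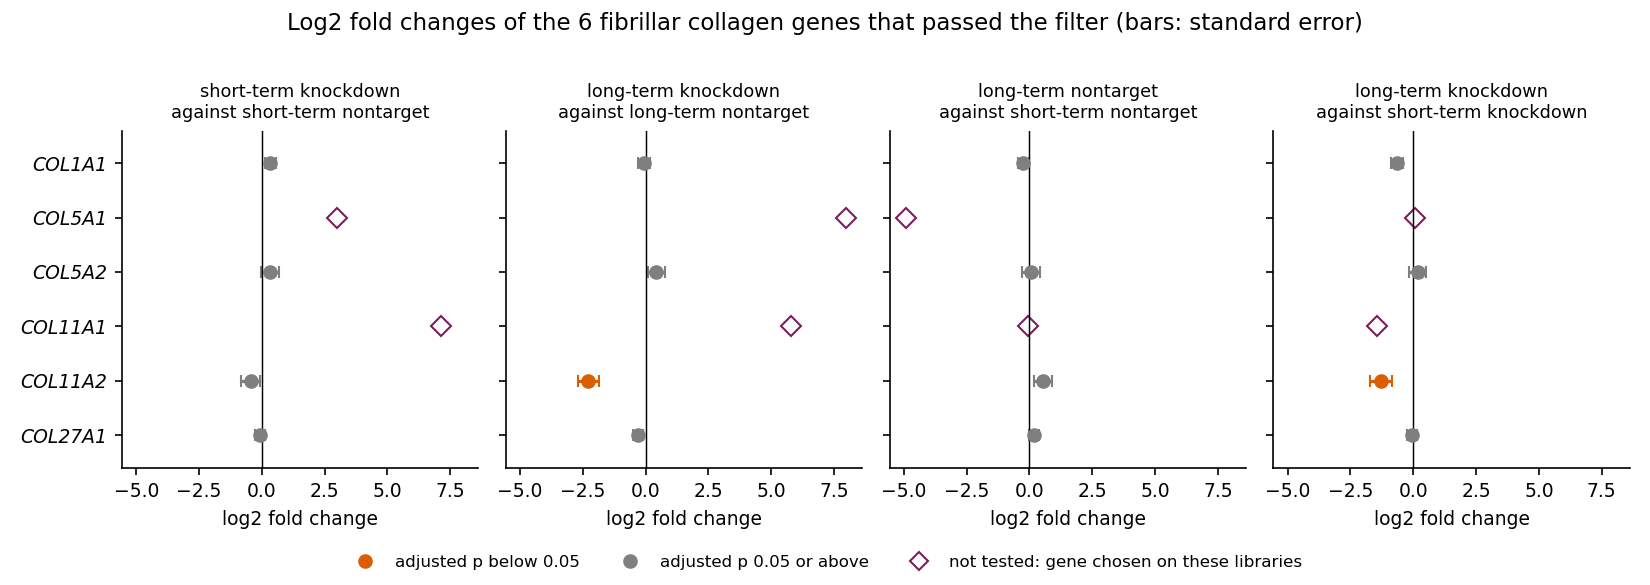
Log2 fold changes (x axis) of the 6 members that passed the filter in 4 comparisons; bars are standard errors, orange points had an edgeR adjusted p below 0.05, and open diamonds are the values of COL5A1 and COL11A1, which were chosen on these libraries and were not tested. COL5A1 is at -4.92 over time in nontarget cells and COL11A2 at -2.29 for knockdown in long-term culture.

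COL5A1 and COL11A1 are left out of the counts of calls, since the choice fixes theirs. Of the other 4 members tested, the short-term knockdown comparison called 0 higher and 0 lower, where 5.62% of 13959 genes were called higher and 4.71% lower. The long-term knockdown comparison called 0 higher and 1 lower, COL11A2, with 13.7% and 15.8% of genes. Time in nontarget cells called 0 higher and 0 lower, with 3.17% and 4.38% of genes, and time in knockdown cells called 0 higher and 1 lower, COL11A2, with 11.5% and 15.2% of genes. The interaction called 0 higher and 1 lower, again COL11A2, with 4.98% and 8.43% of genes.

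Summed over the 10 genes, the level per kb of exon was 6.13 ± 0.884 CPM per kb in nontarget and 34.5 ± 5.57 in knockdown libraries of short-term culture, and 4.14 ± 0.742 in nontarget and 25.4 ± 4.06 in knockdown libraries of long-term culture (mean ± SD, n = 3). The share of each gene is given by group. In short-term nontarget COL1A1 made up 36.8% of the sum on average, COL5A1 32.2% and COL27A1 19.7%. In short-term knockdown COL5A1 made up 45.9% and COL11A1 40.6%. In long-term nontarget COL1A1 made up 46.1%, COL27A1 32.6%, COL11A2 10.9% and COL5A1 0.829%. In long-term knockdown COL5A1 made up 65.8% and COL11A1 20%. The shares of the knockdown groups follow from COL5A1 and COL11A1, by whose rises the family was chosen.

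Among the 40 nearest tested genes on the chromosome, those around COL5A1 and COL11A1 went both ways. The median log2 fold change around COL5A1 was -0.02 for knockdown in short-term culture and -0.08 in long-term culture. Single genes ran from -0.94 to 2.70 and from -1.71 to 3.24. Knockdown called 1 higher and 2 lower of these 40 in short-term culture, where 5.62% and 4.71% of all genes were called. In long-term culture it called 5 higher and 4 lower, with 13.7% and 15.8% of all genes. Of the 20 nearest, 0 were called in short-term culture. In long-term culture 0 of the 20 were called higher and 1 lower, with single genes from -0.71 to 0.32. Around COL11A1 the median of the 40 was -0.00 and 0.12 (single genes from -0.69 to 1.23 and from -1.33 to 2.16). Around COL11A2 it was -0.00 and -0.02 (from -0.55 to 3.08 and from -3.64 to 3.37). Around COL11A1 knockdown called 2 higher and 2 lower in short-term and 5 higher and 4 lower in long-term culture. Around COL11A2 it called 3 higher and 0 lower, then 3 higher and 8 lower. The median over time in nontarget cells around COL5A1 was 0.12 (lowest single gene -1.73), where that of COL5A1 itself was -4.92, and the median over all genes tested was 0.01. Genes that overlap COL5A1 and COL11A1 in the annotation, COL5A1-AS1 and SOD2P1, had 0 counts.

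The genes whose levels over the 12 libraries were most like those of COL5A1, by Pearson r of log2 CPM among 12044 genes with a mean of at least 20 counts, were DYSF (membrane repair, r = 0.980), the mitochondrial tRNA gene MT-TN (0.971), NAPRT (NAD synthesis, 0.968), the mitochondrial tRNA gene MT-TC (0.965) and CDCP1 (a cell-surface protein, 0.965). DYSF had mean levels of 66.8 and 95.7 CPM in nontarget and knockdown cells of short-term culture and of 21 and 94.7 CPM in those of long-term culture, so it too was lowest in long-term nontarget. For COL11A1 they were DOCK2 (an activator of Rac, r = 0.979), HMOX1 (heme breakdown, 0.974), HJURP (centromere assembly, 0.970), PABPC1 (polyA binding, 0.968) and FAM43B (little studied, 0.967). FAM43B followed it down to the near absence in nontarget cells, with 0 and 13.5 CPM in short-term and 0.138 and 4.2 CPM in long-term culture. COL5A1 and COL11A1 had r = 0.838 with each other. These are descriptions over libraries that share their groups.

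The pathway around the fibrillar collagens was described by 8 lists with 116 genes, of which 87 passed the filter. Knockdown in short-term culture called 4 of them higher and 13 lower, against 5.62% and 4.71% of all genes. Their median log2 fold change was -0.09, against 0.00 over all genes tested. These 17 calls depended on single libraries: 7 were left without short-term nontarget replicate 1, and 6 of the 17 were made whichever library was left out. The 17 became 30 with the replicate number as a block, 28 with only the libraries numbered 1 and 2, and 0 at a fold change of 2.5. Knockdown in long-term culture called 16 higher and 26 lower (18.4% and 29.9% of the 87, against 13.7% and 15.8% of all genes; median -0.12 against 0.00). Time in nontarget cells called 5 higher and 5 lower (5.75% each, against 3.17% and 4.38% of all genes; median 0.03 against 0.01), of which 3 were left without short-term nontarget replicate 1. The calls in this comparison became 20 with the block, 16 with only the libraries numbered 1 and 2, and 4 at a fold change of 2. Time in knockdown cells called 16 higher and 17 lower (18.4% and 19.5%, against 11.5% and 15.2% of all genes; median 0.02 against 0.01).

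The list of proteins and collagens that coat the fibril held 22 genes, of which 9 were tested. It included COL24A1, itself a fibrillar collagen, which did not pass the filter. Knockdown in long-term culture called 7 lower and 1 higher (77.8% and 11.1%, against 15.8% and 13.7% of all genes; median -1.70, against 0.00). Time in knockdown cells called 8 lower and 1 higher (88.9% and 11.1%, against 15.2% and 11.5% of all genes), with a median of -1.26 against 0.01. Without replicate 1 or 2 of short-term knockdown or replicate 1 of long-term knockdown the calls were 7, 6 and 6 lower and 0 higher. Knockdown in short-term culture called 1 higher and 0 lower (11.1% and 0%, against 5.62% and 4.71% of all genes), and 0 without replicate 1 or 2 of short-term nontarget or replicate 1 of short-term knockdown.

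LUM, which encodes lumican, a small proteoglycan that binds collagen fibrils and limits their width, was, like COL5A1, low in long-term nontarget cells. Its counts were 174, 180 and 123 in nontarget and 205, 191 and 88 in knockdown libraries of short-term culture, and 8, 10 and 2 in nontarget and 109, 99 and 54 in knockdown libraries of long-term culture. The long-term nontarget libraries were far below all others. LUM fell by 4.29 on the log2 scale over time in nontarget cells (SE 0.34, edgeR adjusted p = 5.55e-07) and was higher by 3.36 ± 0.35 in long-term knockdown than in long-term nontarget (adjusted p = 1.90e-06). In contrast to COL5A1, its short-term knockdown difference was -0.01 ± 0.23 (edgeR adjusted p = 0.986), and the interaction was 3.37 ± 0.42 (adjusted p = 3.47e-05). LUM also fell over time in knockdown cells, to 0.522 of its short-term mean CPM, and was among the 8 surface genes called lower there. The log2 fold change of COL5A1 in that comparison was 0.06.

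BGN, FN1, COL14A1 and COL12A1 had the opposite pattern, low in long-term knockdown only. BGN, which encodes the proteoglycan biglycan, had 161, 137 and 223 counts in long-term nontarget and 6, 9 and 11 in long-term knockdown, a mean CPM 18.5 times lower (edgeR adjusted p = 5.35e-09). FN1, which encodes fibronectin, on which collagen fibrils are assembled, had 10177, 9567 and 15740 counts in long-term nontarget and 2708, 1963 and 1482 in long-term knockdown. Its log2 fold change was -2.52 ± 0.16 there (edgeR adjusted p = 8.60e-09) and 0.65 ± 0.15 for knockdown in short-term culture (adjusted p = 0.011). Leaving out replicate 1 (edgeR adjusted p = 0.0705) or 2 (0.0629) of short-term nontarget ended the short-term call of FN1, as did leaving out short-term knockdown replicate 1 (0.0506). COL14A1 and COL12A1 encode collagens that sit on fibril surfaces, and their log2 fold changes in long-term culture were -3.65 ± 0.35 (edgeR adjusted p = 4.45e-07) and -1.70 ± 0.19 (adjusted p = 2.61e-06). The fall of COL14A1, 16.9 times in mean CPM, became 42.3 times without long-term knockdown replicate 3, and that over time in knockdown cells went from 15.5 to 38.8 times without the same library. Each of the 4 fell over time in knockdown cells too, with log2 fold changes of -4.58 for BGN, -3.13 for FN1, -3.54 for COL14A1 and -1.48 for COL12A1.

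**Figure D3:**
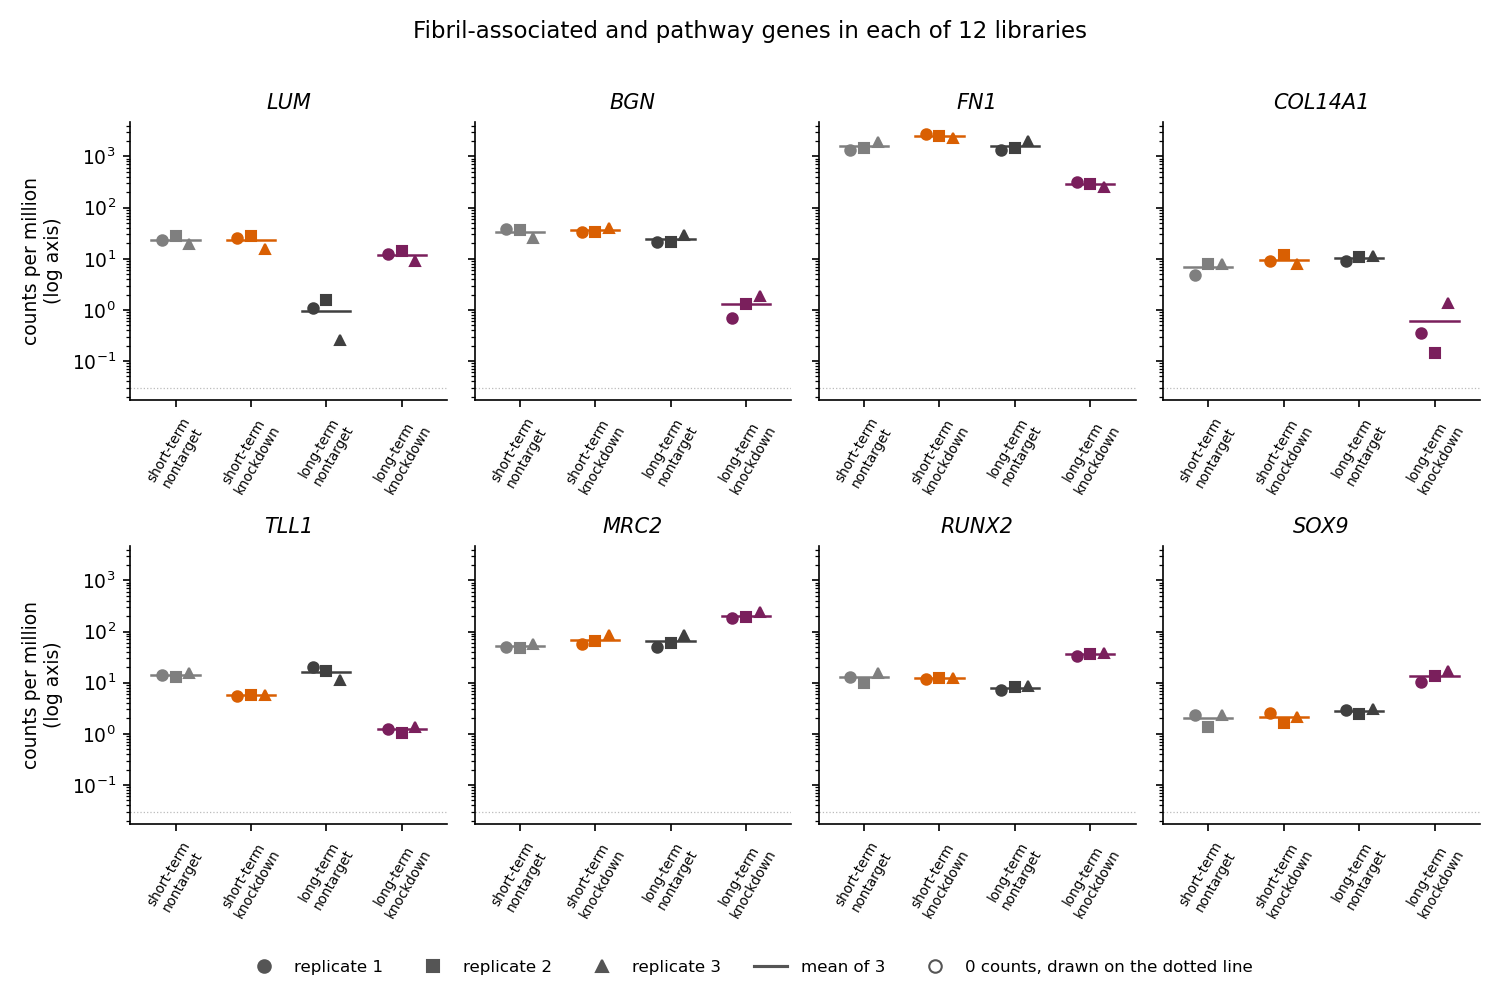
CPM (log axis) of 8 genes of the pathway lists in each of 12 libraries; points are libraries and short lines are means of 3. LUM is lowest in long-term nontarget, BGN, FN1, COL14A1 and TLL1 are lowest in long-term knockdown, and MRC2, RUNX2 and SOX9 are highest there.

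Cross-linking enzymes split. Of 6 tested, knockdown called 2 higher and 3 lower in short-term culture (33.3% and 50%, against 5.62% and 4.71% of all genes; median -0.37, against 0.00). These 5 calls became 3 without any 1 library of the comparison other than short-term knockdown replicate 3. Knockdown in long-term culture called 2 higher and 2 lower (33.3% each, against 13.7% and 15.8% of all genes; median 0.04). LOX, the lysyl oxidase that starts collagen cross-links, had 210, 145 and 186 counts in short-term nontarget and 384, 298 and 316 in short-term knockdown. In long-term culture it had 164, 97 and 174 in nontarget and 436, 259 and 320 in knockdown. LOX was higher in every knockdown library than in any nontarget library of the same culture time, by 0.88 ± 0.17 (edgeR adjusted p = 0.00249) and 1.24 ± 0.17 (adjusted p = 2.92e-05) on the log2 scale. The lysyl oxidase relative LOXL4 and the transglutaminase gene TGM2 went the other way at both times: LOXL4 had log2 fold changes of -0.99 ± 0.16 (edgeR adjusted p = 7.14e-04) and -1.17 ± 0.16 (adjusted p = 2.00e-05), and TGM2 of -1.24 ± 0.23 (adjusted p = 0.00269) and -1.35 ± 0.23 (adjusted p = 4.05e-04). LOXL2, another relative, was called higher in long-term knockdown (0.51 ± 0.12, edgeR adjusted p = 0.0038). Its short-term value (0.25 ± 0.12, edgeR adjusted p = 0.227) was called in the fit with the replicate number as a block, and its interaction (adjusted p = 0.367) in the fit to the libraries numbered 1 and 2 only.

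Of 7 tested genes of propeptide removal, knockdown called 0 higher and 3 lower in short-term culture (0% and 42.9%, against 5.62% and 4.71% of all genes; median -0.27, against 0.00). The long-term comparison called 2 higher and 4 lower (28.6% and 57.1%, against 13.7% and 15.8% of all genes; median -0.51), with 1 of the higher calls lost without replicate 1 or 2 of long-term nontarget or replicate 1 of long-term knockdown. TLL1, a protease of the family that removes the C-propeptide, had 102, 85 and 100 counts in short-term nontarget, 43, 39 and 33 in short-term knockdown, 152, 112 and 89 in long-term nontarget, and 11, 7 and 8 in long-term knockdown. It fell by 1.29 on the log2 scale in short-term culture (SE 0.20, edgeR adjusted p = 4.69e-04) and by 3.47 in long-term culture (SE 0.24, adjusted p = 1.45e-08), and the interaction was -2.19 ± 0.32 (adjusted p = 1.39e-04). PCOLCE2, which encodes an enhancer of this cleavage, changed direction: it fell by 0.88 in short-term culture (SE 0.15, edgeR adjusted p = 9.81e-04) and was higher by 1.03 ± 0.14 in long-term culture (adjusted p = 2.12e-05).

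Of 15 tested genes for enzymes that modify the chains inside the cell, knockdown called 0 higher and 1 lower in short-term culture (0% and 6.67%, against 5.62% and 4.71% of all genes; median -0.15, against 0.00). The 1 became 0 without replicate 1 or 2 of short-term nontarget, and 2 without replicate 3 of short-term nontarget or of short-term knockdown. In long-term culture knockdown called 2 higher and 7 lower (13.3% and 46.7%, against 13.7% and 15.8% of all genes; median -0.38), and the 7 became 4 without replicate 1 or 2 of long-term knockdown or replicate 3 of long-term nontarget. PLOD2, the lysyl hydroxylase that acts on the ends of the chains and so sets the kind of cross-link, had 1330, 1134 and 1188 counts in short-term nontarget and 1289, 1321 and 898 in short-term knockdown. In long-term culture it had 2385, 1729 and 2232 in nontarget and 5119, 3334 and 2656 in knockdown. It rose over time in nontarget cells by 0.70 ± 0.11 (edgeR adjusted p = 7.42e-04) and in knockdown cells by 1.57 ± 0.12 (adjusted p = 2.21e-08), with an interaction of 0.87 ± 0.16 (adjusted p = 0.00105). PLOD3, another lysyl hydroxylase, fell by 0.63 with knockdown in long-term culture (SE 0.14, edgeR adjusted p = 0.00201). Of 13 chaperone and export genes tested, knockdown called 0 higher and 4 lower in short-term culture (0% and 30.8%, against 5.62% and 4.71% of all genes; median -0.29), and the 4 became 2 without replicate 1 or 3 of short-term nontarget or replicate 1 of short-term knockdown. The long-term comparison called 0 higher and 1 lower (0% and 7.69%, against 13.7% and 15.8% of all genes; median -0.17), or 2 lower without replicate 1 or 2 of long-term nontarget or replicate 3 of long-term knockdown. The 1 was SEC23A, a coat protein of export vesicles, at -0.60 ± 0.11 (edgeR adjusted p = 4.81e-04). SERPINH1, the collagen chaperone of fibrillar procollagens, named here after its values were seen, had log2 fold changes of -0.09 ± 0.12 (edgeR adjusted p = 0.735) and -0.17 ± 0.12 (adjusted p = 0.341).

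Genes of collagen uptake, breakdown and control were read beside the shares of all genes called, 5.62% higher and 4.71% lower with knockdown in short-term culture and 13.7% and 15.8% in long-term culture. Of 6 receptor and uptake genes tested, knockdown called 0 in short-term culture (median -0.12) and 1 higher and 2 lower in long-term culture (median 0.03), or 1 lower without replicate 1 or 2 of either group. MRC2, which encodes the receptor that takes up cleaved collagen, had 373, 392 and 654 counts in long-term nontarget and 1608, 1305 and 1418 in long-term knockdown (log2 fold change 1.65 ± 0.18, edgeR adjusted p = 3.11e-06). Of 6 degradation genes tested, knockdown called 0 higher and 2 lower in short-term culture (median -0.27). These 2 calls became 0 without replicate 1 of short-term nontarget. They became 1 without replicate 2 of short-term nontarget or replicate 1, 2 or 3 of short-term knockdown. In long-term culture knockdown called 1 higher and 2 lower of the 6 (median -0.29). TIMP2, which encodes a metalloproteinase inhibitor, fell by 0.93 in long-term knockdown (SE 0.09, edgeR adjusted p = 3.20e-07). MMP14, a metalloproteinase gene of the same list, was lower too, by 0.47 in long-term culture (SE 0.11, edgeR adjusted p = 0.0037). In short-term culture MMP14 was lower by 0.44 (SE 0.11, edgeR adjusted p = 0.0148), a call kept in 10 of 12 fits without 1 library.

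Of 25 regulators tested, knockdown called 1 higher and 0 lower in short-term culture (median 0.05), where 5.62% and 4.71% of all genes were called. That call was lost without any 1 of the 6 libraries. In long-term culture knockdown called 7 higher and 1 lower (28% and 4%, against 13.7% and 15.8% of all genes). The median of the 25 was 0.07, against 0.00 over all genes. Without long-term nontarget replicate 1 the calls were 5 higher and 2 lower. SOX9, the transcription factor that turns on cartilage collagens including types II and XI, had 17, 9 and 15 counts in short-term nontarget, 20, 11 and 12 in short-term knockdown, 22, 16 and 24 in long-term nontarget, and 89, 92 and 101 in long-term knockdown. SOX9 was high in long-term knockdown only, while COL11A1 was highest in short-term knockdown. A link between the 2 genes was not tested. The log2 fold change of SOX9 was 0.05 ± 0.30 (edgeR adjusted p = 0.95) in short-term and 2.13 ± 0.24 (adjusted p = 2.44e-06) in long-term culture, and the interaction was 2.08 ± 0.41 (adjusted p = 0.0019). RUNX2, a transcription factor of bone and maturing cartilage, was also highest in long-term knockdown. Its counts were 93, 66 and 97 in nontarget and 93, 85 and 69 in knockdown libraries of short-term culture. In long-term culture they were 54, 52 and 66 against 282, 250 and 227. Log2 fold changes with knockdown were -0.06 ± 0.16 (edgeR adjusted p = 0.88) and 2.13 ± 0.16 (adjusted p = 2.32e-08). Over time in nontarget cells RUNX2 fell (-0.65 ± 0.17, edgeR adjusted p = 0.0205), while SOX9 stood at 1.41 times its short-term mean CPM. That call of RUNX2 was lost without replicate 1 or 3 of short-term or replicate 1 or 2 of long-term nontarget. SMAD3, which carries the signal of transforming growth factor beta to collagen genes, was higher by 0.87 ± 0.17 in long-term knockdown (edgeR adjusted p = 0.00108). RFXAP, another gene of this list, was higher by 1.03 ± 0.22 in the same comparison (edgeR adjusted p = 0.00171).

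Markers of cell types that make these collagens were read in the same libraries. Of 12 fibroblast and myofibroblast genes 6 were tested, and their summed level was 778 ± 61.3 CPM in nontarget and 519 ± 70.1 CPM in knockdown cells of short-term culture and 820 ± 39.5 and 186 ± 23.1 CPM in those of long-term culture. TAGLN alone made up 726, 477, 778 and 156 CPM in the same order. The sum, nearly all TAGLN, was lower in the knockdown groups. In long-term culture knockdown called 1 of the 6 higher, LUM, and 4 lower (16.7% and 66.7%, against 13.7% and 15.8% of all genes; median -1.41, against 0.00). Of the 12, PDGFRA, DCN, FAP, DPT and POSTN were at 7 counts or fewer in every library, while LUM, PDGFRB, THY1 and TAGLN were among the 6 tested. LUM, DCN, FAP and POSTN are also on other lists here. Of 10 chondrocyte genes 3 were tested, with sums of 20.6 ± 1.68, 25.9 ± 2.07, 17.9 ± 3.54 and 23.8 ± 5.18 CPM, led by MATN3 at 9.49, 17.8 and 7.55 CPM in the first 3 groups and by SOX9 at 13.6 CPM in long-term knockdown. Of these 3, knockdown called 1 higher and 0 lower in short-term culture (33.3% and 0%, against 5.62% and 4.71% of all genes). In long-term culture it called 1 higher and 1 lower (33.3% each, against 13.7% and 15.8% of all genes). ACAN, CNMD, COMP and HAPLN1, of the same list as MATN3, were at 1 count or fewer in every library. In bulk RNA, fewer cells of a type and less RNA per cell cannot be told apart.

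The labelled cell type was checked in the same way. Of 12 proximal tubule genes 3 were tested, LRP2, SLC22A6, SLC22A8 and HNF4A had 0 counts in all 12 libraries, and the sum was 77.8 ± 4, 107 ± 6.27, 83.6 ± 12.2 and 137 ± 2.86 CPM, led by GGT1 in 3 groups and PDZK1 in long-term nontarget. Of 10 epithelial genes 8 were tested, with sums of 2905 ± 121, 3606 ± 432, 3645 ± 260 and 4328 ± 301 CPM, led by KRT8. The sums hide genes that went the other way: in long-term culture knockdown called 1 of the 8 higher and 4 lower (12.5% and 50%, against 13.7% and 15.8% of all genes; median -0.43, against 0.00), time in knockdown cells called 1 higher and 5 lower (12.5% and 62.5%, against 11.5% and 15.2% of all genes; median -0.81, against 0.01), and KRT8 itself had 1997 CPM in long-term nontarget and 1726 CPM in long-term knockdown. Of 7 endothelial and leukocyte genes 0 were tested, and their sum was at most 2.46 CPM in any library, led by VWF or PECAM1. The libraries thus read as epithelial cells in which 4 of the 12 proximal tubule genes were not detected at this depth and 3 were tested.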

How the data were processed

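RNA of 12 HK-2 libraries was sequenced with 3 libraries in each of 4 groups, which followed the genotype and passage labels. Per the submitters' processing notes, the authors aligned reads to GRCh38 with STAR and counted them per gene with featureCounts, no versions given, and deposited the raw counts used here. The authors also deposited a table of values they normalized with DESeq2, taken as a score whose scale the notes do not state; all of its values lay within 1 of the count divided by the DESeq2 size factor, and it was used only for this check.

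Gene IDs were matched to GENCODE v29 without their version: 55619 had the same version, 2406 another version and 263 no match. Genes were filtered with filterByExpr, which left 13959 of 58288 IDs holding 99.8% of counts, scaled by TMM factors and tested with edgeR 4.0.16 (R 4.3.3) by a quasi-likelihood fit of 4 groups with robust variance (limma 3.58.1 for the empirical Bayes step), Benjamini-Hochberg adjustment within each comparison, a threshold of 0.05 on adjusted p and a prior count of 2 for log2 fold changes. The biological coefficient of variation was 12.0%. The scripts were tested on simulated data. Alternatives were RLE factors, DESeq2 1.42.0, no filter, genes with at least 10 CPM, only the groups compared, fold limits of 2.5 (knockdown) and 2 (culture time), the replicate number as a block, and each library left out.

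Libraries with the same replicate number deviated together (Pearson r of deviations from group means) for long-term knockdown with long-term nontarget (r = 0.41, 0.16 and 0.58) and with short-term knockdown (0.33, 0.40 and 0.57). In these 2 comparisons the numbers thus pair the libraries. Short-term knockdown and long-term nontarget, which meet only in the interaction, also deviated together (0.37, 0.21 and 0.58). This likeness comes from the data, not the labels, and the main fit held no replicate term. Named genes were FLCN, the 10 members, COL24A1 and the 5 genes most like COL5A1 and COL11A1. In each list the rule gave up to 4 called genes per comparison, with the largest change among genes averaging 20 counts or more. Not all genes given by the rule are described, among them LOXL1, FKBP14, MIA2, ITGA1, ITGA2, P4HA2 and P4HB. The members and lists were chosen with earlier results of these data known. Promoter sequences are from RefSeq. Of the planned proximal tubule list, 1 gene is not reported here.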

Additional observations from a re-analysis of the deposited data

Results flagged for a closer look

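The effect of knockdown differed between short-term and long-term culture, by the edgeR test of the interaction, for 15 of the genes named by rule or in the report, among 16 pathway genes called (7 higher and 9 lower, 8.05% and 10.3% of those tested, against 4.98% and 8.43% of all genes) and COL11A2. The log2 effect of knockdown was lower in long-term than in short-term culture for COL11A2 (log2 -1.84, adjusted p = 0.0368), SEC23A (-0.59, 0.0155), TLL2 (-2.68, 5.25e-04), TLL1 (-2.19, 1.39e-04), COL14A1 (-4.11, 4.70e-06), BGN (-4.09, 1.20e-07), FN1 (-3.17, 5.01e-08), COL12A1 (-1.77, 1.22e-04) and TIMP2 (-0.79, 1.88e-04). It was higher in long-term culture for PLOD2 (0.87, 0.00105), PCOLCE2 (1.91, 5.40e-06), LUM (3.37, 3.47e-05), MRC2 (1.24, 0.00314), RUNX2 (2.19, 3.39e-06) and SOX9 (2.08, 0.0019). The 16 pathway calls became 28 with the replicate number as a block and 29 with only the libraries numbered 1 and 2. Without long-term knockdown replicate 1 the value of TLL2 went to -3.40 and its fall with knockdown in long-term culture from 4.91 to 8.46 times. The value of SEC23A was lost without short-term nontarget replicate 2 (0.0532), and that of COL11A2 in 8 of 12 fits without 1 library. The causes were not tested.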

How the results depend on the processing

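Of 208 counts of calls under alternatives, 172 were within 1.5 times the count of the edgeR fit and 36 moved. Of 2497 single values 2311 kept direction and side of the threshold, 117 lost the call, 12 gained it, 26 moved and 31 reversed. Members called, counts that include COL5A1 and COL11A1 and from which nothing is read, went for time in knockdown cells from 2 to 4 with no filter and to 1 with at least 10 CPM or only the groups compared, and for the interaction from 2 to 1 with at least 10 CPM, with only the libraries numbered 1 and 2, and with DESeq2. A fit to only the libraries numbered 1 and 2 was chosen after seeing the data. It called 28 pathway genes for knockdown in short-term culture (17 before), 16 for time in nontarget cells (10) and 29 for the interaction (16), and it reversed the log2 values of COL5A2 in the interaction (-0.21) and of COL11A2 (-0.17) and COL27A1 (-0.01) over time in nontarget cells, and of LUM (0.08) and RUNX2 (0.08) for knockdown in short-term culture. It also called SERPINH1 (-0.23) in that comparison and LOXL2 in the interaction. Requiring a fold change by construction lowered pathway calls to 0 (short-term knockdown) and 14 (long-term knockdown, from 42) at 2.5 times, and to 4 (time in nontarget cells) and 13 (time in knockdown cells, from 33) at 2 times. Apart from the smaller sets of genes or libraries, the cause was not tested.

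With the replicate block, pathway calls were 30 for knockdown in short-term culture, 20 for time in nontarget cells and 28 for the interaction. Same-numbered libraries deviated together little or not at all in those nontarget comparisons. Short-term nontarget had r = -0.003, 0.16 and 0.06 with short-term knockdown and -0.07, 0.12 and 0.02 with long-term nontarget. For values named in the report the block gained the calls of COL1A1 for time in knockdown cells (adjusted p = 6.94e-04) and of LOXL2 for knockdown in short-term culture (log2 0.24), and it changed no other call.

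With 1 library left out at a time, members called ranged from 2 to 2 and 3 to 4 for knockdown in short-term and long-term culture, 1 to 1 and 1 to 3 for time in nontarget and knockdown cells, and 1 to 3 for the interaction. These counts again include COL5A1 and COL11A1, and nothing is read from them. Among the other members, 0 were called for knockdown in short-term culture and 0 for time in nontarget cells with all libraries. Pathway calls ranged from 7 to 18, 37 to 44, 3 to 12, 22 to 35 and 16 to 19 in the same order. Uncalled log2 values that crossed 0 ranged from -0.38 to 0.12 for COL1A1 (knockdown, long-term), -0.10 to 0.37 for COL5A1, -0.08 to 0.45 for COL5A2 and -0.31 to 0.14 for COL27A1 (time in knockdown cells), -0.16 to 0.53 for COL5A2 and -0.45 to 0.29 for COL11A1 (time in nontarget cells), -0.35 to 0.38 for COL5A2 (interaction) and, for knockdown in short-term culture, -0.18 to 0.07 for COL27A1, -0.16 to 0.19 for LUM, -0.14 to 0.19 for SOX9 and -0.20 to 0.09 for RUNX2. At this depth COL5A2 and COL11A2, with 2 to 38 counts per library, rest on few reads.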
